A study of Homo sapiens with 16 samples.

Results

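10 long noncoding RNAs known in bladder cancer were followed in 4 bladder cancer cell lines: UCA1, H19, MALAT1, NEAT1, HOTAIR, MEG3, GAS5, PVT1, CDKN2B-AS1 and MIR31HG. The members were taken by symbol, and all 10 were among the 35993 genes of the count table and among the 21297 genes tested after the filter on low counts. The established human lines 253J, J82, RT112 and TCCSUP, all labelled wild type (WT) and derived from bladder cancers, received CM-1758, a histone deacetylase inhibitor, at the IC50 (the concentration for half-maximal inhibition) of each line, or, per the labels, DMSO 0.01% as vehicle, for 48 h. The study's figure legends call the control cells untreated. 253J, J82 and RT112 grew in DMEM GlutaMAX and TCCSUP in EMEM, both with serum, so that the medium and the dose differed between lines as well as the cells. Each of the 8 groups (4 lines, control and treated) had 2 libraries of ribosomal RNA-depleted total RNA, described by the study as biological replicates.

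Long noncoding RNAs are transcripts without a long open reading frame, many of them spliced and polyadenylated, that act in the nucleus on chromatin and RNA processing or in the cytoplasm on RNA stability and translation. Several were first described in urothelial carcinoma: UCA1 carries the disease in its name (urothelial cancer associated 1), and H19 was among the earliest RNAs proposed as a marker of bladder tumours. Histone deacetylases remove acetyl groups from histone tails, and their inhibition raises acetylation and transcription at many, though not all, genes.

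Promoter sequence (250 bases before to 50 bases after the start) was read from RefSeq, build GRCh38.p14, which held entries for 6 members. They are shown for MEG3 and H19, the imprinted RNAs among the members, and for GAS5, which decreased in several lines. In the MEG3 sequence capitals mark the cyclic AMP response element TGACGTCA and the TATA element TATAAA, and in the H19 and GAS5 sequences capitals mark each CG dinucleotide.
MEG3, chr14:100825858-100826157, plus strand: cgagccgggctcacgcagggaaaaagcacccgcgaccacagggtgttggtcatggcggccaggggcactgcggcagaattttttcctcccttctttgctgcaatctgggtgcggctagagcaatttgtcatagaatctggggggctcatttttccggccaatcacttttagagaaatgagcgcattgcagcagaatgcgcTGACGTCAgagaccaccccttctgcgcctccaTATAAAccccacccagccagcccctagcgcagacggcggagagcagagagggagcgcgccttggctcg
H19, chr11:2001217-2001516, minus strand: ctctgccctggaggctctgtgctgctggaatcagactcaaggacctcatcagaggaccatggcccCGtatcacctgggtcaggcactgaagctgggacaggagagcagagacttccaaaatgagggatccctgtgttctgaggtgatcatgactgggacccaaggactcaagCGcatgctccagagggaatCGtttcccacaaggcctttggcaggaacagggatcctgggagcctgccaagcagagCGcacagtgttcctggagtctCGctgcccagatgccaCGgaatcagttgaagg
GAS5, chr1:173868996-173869295, minus strand: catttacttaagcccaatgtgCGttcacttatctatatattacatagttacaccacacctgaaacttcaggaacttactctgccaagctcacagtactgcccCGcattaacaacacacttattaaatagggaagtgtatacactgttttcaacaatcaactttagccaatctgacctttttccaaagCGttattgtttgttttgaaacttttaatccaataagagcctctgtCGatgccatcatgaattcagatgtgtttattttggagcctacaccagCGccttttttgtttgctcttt

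The MEG3 stretch held TGACGTCA, present on either strand in 1.85% of the 35116 promoters of the same length, and TATAAA, present in 11.5%; the letters of these motifs do not overlap each other. H19 had 6 CG dinucleotides and GAS5 had 5, against a median of 14 over all promoters. Of all promoters, 36.8% had 6 or fewer and 33.7% had 5 or fewer, so such low numbers are common. MEG3 had 17 to 19 at its 3 starts. MIR31HG had 39, CDKN2B-AS1 had 36, and the MALAT1 starts had 37 and 14. MIR31HG and H19 also carry microRNAs within their transcripts, shown with the seed (bases 2 to 8) in capitals because they are the small products for which these host RNAs are known.
hsa-miR-31-5p: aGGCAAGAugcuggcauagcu
hsa-miR-675-5p: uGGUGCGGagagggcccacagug
hsa-miR-675-3p: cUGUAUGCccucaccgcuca

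No seed was shared between these microRNAs. Their genes could not be followed here, since the MIR675 row held 3 counts in 13 of the 16 libraries and the MIR31 row 0 to 8 counts.

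Library totals ranged from 22506431 to 32537104 counts. Values are given as CPM, counts scaled to a common library total by the TMM method, and 3 counts, the limit that a count of 0 allows in 1 library, corresponded to 0.0981 to 0.119 CPM. This limit covers counting error only. The J82 control libraries differed from each other more than any other pair of the same group, with 73.1 for their chi-square over genes, divided by its degrees of freedom, against 11.7 to 49.2 in the other groups, so J82 results are given below with and without each of them where this matters. The line labels were compared with 16 urothelial and epithelial markers. KRT8 and KRT18, the simple-epithelium keratins, were at 39.2 CPM or more in all 16 libraries, whereas the uroplakin UPK1B was at 1298 and 1517 CPM in RT112 controls and at 0 counts in 253J, and the basal keratin KRT5 was at 0 counts in 253J and J82. Of 7 blood and endothelial markers, summed levels were 0.362 to 3.27 CPM in 253J, 4.74 to 8.53 in RT112, 4.11 to 7.68 in J82 and 13.9 to 22.0 in TCCSUP, where CD14 and PTPRC, which encode a monocyte receptor and the leukocyte common antigen, were the most abundant in controls and CD14 (8.12 and 7.12 CPM) was after treatment. CD3E, which marks T cells, was at 0 counts in 13 of the 16 libraries. PTPRC fell in TCCSUP from 8.63 and 10.5 CPM to 0.973 and 1.26 CPM; its part in the TCCSUP results below was not tested. Since RNA was taken from whole cultures, fewer cells with a transcript and less RNA per cell cannot be told apart.

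Of the 40 combinations of a member and a line, 4 were at or below 3 counts in all libraries (HOTAIR in 253J, MEG3 in J82, CDKN2B-AS1 and MIR31HG in RT112). Of the other 36, 14 rose, 9 fell and 13 did not pass the test (edgeR quasi-likelihood test over all genes, Benjamini-Hochberg adjusted p below 0.05). In 253J 4 members rose and 3 fell, where 28.8% of all tested genes were higher and 22.4% lower. In J82 1 rose and 2 fell, against 24% and 18.5%. In RT112 4 rose and 2 fell, against 27.4% and 20.2%, and in TCCSUP 5 rose and 2 fell, against 32% and 22.1%. With so few members these shares are a description and were not compared by a test. At the threshold of the study (log2 fold change beyond 2 and adjusted p below 0.01), 4 members were higher in TCCSUP, 2 in 253J and 1 each in RT112 and J82, beside 14.2%, 9.43%, 11.4% and 8.81% of all genes. In the other direction H19 in J82 passed it, and no member did in the other lines, beside 1.24% of all genes in J82, 3.5% in 253J, 3.31% in TCCSUP and 1.39% in RT112. Among all long noncoding RNA genes by RefSeq biotype the median log2 fold change was 0.74, 0.57, 0.76 and 0.95 in 253J, J82, RT112 and TCCSUP, against 0.13, 0.08, 0.10 and 0.12 among protein-coding genes; the medians of the members above 3 counts were 0.86, -0.16, 0.87 and 0.53.

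**Figure D1:**
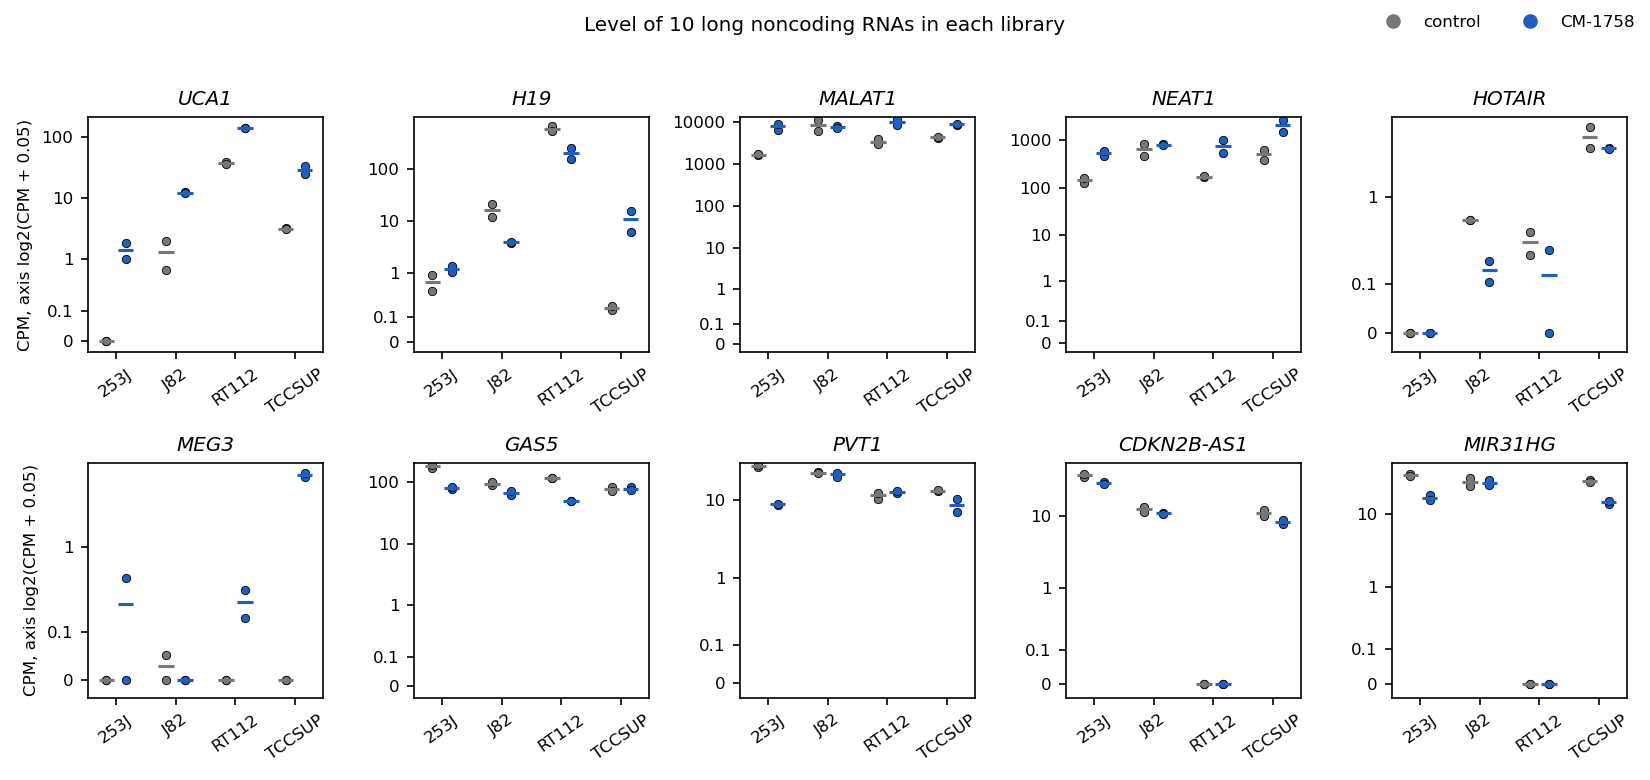
Level of each RNA in each library, as CPM on a log2(CPM + 0.05) axis; points are libraries (grey control, blue CM-1758) and short lines are means of 2 libraries. UCA1 was higher in every treated library of a line than in its controls, CDKN2B-AS1 and MIR31HG were at 0 in RT112, and MEG3 was at 0 in the TCCSUP controls and above 5 CPM after treatment.

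**Figure D2:**
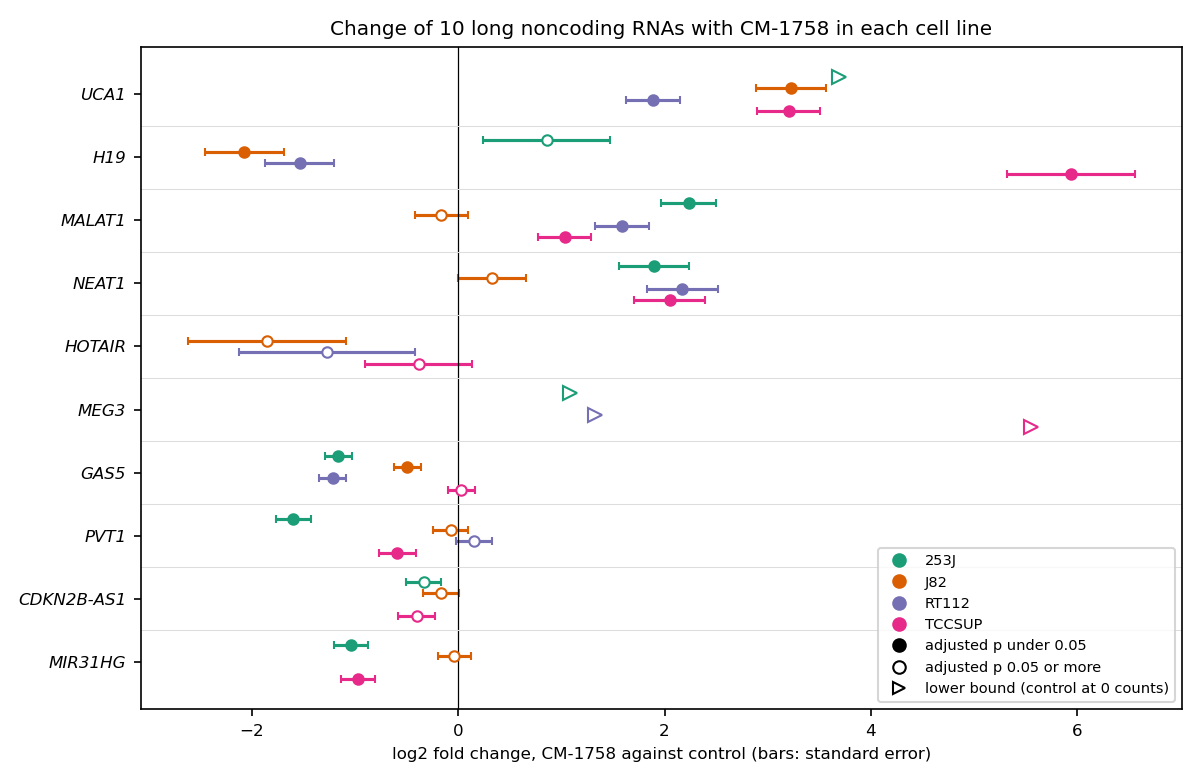
Log2 fold change of each RNA with CM-1758 in each line; bars are standard errors, filled points have an adjusted p below 0.05, and open triangles are lower bounds where both control libraries had 0 counts. The H19 points lie on both sides of 0, at -2.08 in J82, -1.54 in RT112 and 5.94 in TCCSUP.

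UCA1 was the member that rose in all 4 lines. It lies on chromosome 19 among the CYP4F genes and is known as a promoter of proliferation and glycolysis in bladder cancer cells. In 253J it had 0 counts in both control libraries and 0.990 and 1.89 CPM in the treated libraries, at least 12.9-fold higher against a limit of 3 counts per library (adjusted p = 4.88e-05). In J82 it went from 2.01 and 0.654 CPM to 12.8 and 12.1 CPM, a log2 fold change of 3.23 ± 0.34 (standard error, n = 2 libraries per group, edgeR adjusted p = 5.44e-06). Since the J82 controls lay apart, the log2 fold change there was 4.24 without the first control replicate and 2.63 without the third. In RT112, where its control level was highest, it went from 39.2 and 36.5 CPM to 139 and 140 CPM (log2 fold change 1.89 ± 0.26, edgeR adjusted p = 5.55e-05). In TCCSUP it went from 3.25 and 3.14 CPM to 24.8 and 34.0 CPM (3.20 ± 0.30, edgeR adjusted p = 1.29e-06). No treated library overlapped a control library of its line. The control levels ran from RT112 over TCCSUP and J82 to 253J, and all 6 pairs of lines differed (the closest, J82 against TCCSUP, with edgeR adjusted p = 0.0113). After treatment the libraries stood in the same order, RT112, TCCSUP, J82 and 253J.

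CYP4F genes around UCA1 rose as well. They encode cytochrome P450 enzymes that hydroxylate fatty acids and eicosanoids, and the olfactory receptor genes of the same stretch (OR10H1 to OR10H5) did not pass the filter on low counts. Of 11 listed genes of the stretch, 6 CYP4F genes passed that filter, and 6 rose in 253J, RT112 and TCCSUP each and 5 in J82. In 253J 3 of them, in J82 4 and in TCCSUP 4 were at or below 3 counts in both controls and entered through the treated libraries, so these counts are a description. Of all tested genes above 3 counts, 31.3%, 26.4%, 29.4% and 33.1% rose and 24.5%, 20.3%, 21.8% and 22.9% fell in 253J, J82, RT112 and TCCSUP. CYP4F2, the next gene to UCA1, went in RT112 from 0.425 and 0.305 CPM to 70.9 and 72.8 CPM, a log2 fold change of 7.60 ± 0.58 (edgeR adjusted p = 2.88e-07). In TCCSUP CYP4F2 was at 0 counts in both controls and at 12.2 and 9.40 CPM after treatment, at least 92.7-fold higher. CYP4F22, which takes part in making skin-barrier lipids, rose in all 4 lines, at least 35.1-fold in TCCSUP and at least 2.70-fold in 253J, both from 0 counts. CYP4F11 had log2 fold changes of 0.84 ± 0.19 in 253J and 0.86 ± 0.20 in RT112, the lines in which it was already at 21.3 and 27.4 CPM and at 9.32 and 8.47 CPM in controls. In RT112 the log2 fold changes of CYP4F2, CYP4F8 and CYP4F22 (7.60, 4.08 and 2.57) were above that of UCA1.

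MALAT1 and NEAT1 are neighbouring genes on chromosome 11 whose long, largely unspliced RNAs stay in the nucleus, MALAT1 in splicing speckles and NEAT1 as the scaffold of paraspeckles. Per length, MALAT1 had the highest control level of the 10 members in every line (192 to 977 CPM per kb of exon), and NEAT1 controls were at 6.23 to 28.4. MALAT1 alone made up 0.15% to 1.36% of all counts of a library. In 253J MALAT1 went from 1644 and 1747 CPM to 6744 and 9207 CPM (log2 fold change 2.23 ± 0.27, edgeR adjusted p = 6.69e-06), in RT112 from 2993 and 3895 to 8678 and 12022 CPM (1.59 ± 0.26, edgeR adjusted p = 0.000182), and in TCCSUP from 4252 and 4494 to 8510 and 9355 CPM (1.03 ± 0.26, edgeR adjusted p = 0.00375). All treated libraries of these lines lay above all of their controls. In J82 the levels overlapped, with 11149 and 6100 CPM in controls and 8208 and 7198 CPM after treatment (-0.16 ± 0.26, edgeR adjusted p = 0.665). This value was 0.34 without the first J82 control replicate and -0.53 without the third, so its sign rested on which control was kept.

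The J82 controls were also those with the highest MALAT1 level, and the control level differed between all pairs of lines except RT112 against TCCSUP (edgeR adjusted p = 0.29). After treatment the 4 lines lay closer together, with means of 7703 CPM in J82, 7976 in 253J, 8932 in TCCSUP and 10350 in RT112. The change in J82 differed from that in 253J (difference in log2 fold change 2.40 ± 0.37, adjusted p = 0.000181), in RT112 (adjusted p = 0.00302) and in TCCSUP (adjusted p = 0.0285), each from an edgeR contrast of the changes. The difference from TCCSUP was lost when any 1 library of these lines other than the third J82 control replicate was left out, with the largest edgeR adjusted p (0.129) without the first J82 control replicate.

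NEAT1 had the same pattern of calls. It went from 123 and 160 CPM to 461 and 594 CPM in 253J (log2 fold change 1.90 ± 0.34, edgeR adjusted p = 0.000278), from 169 and 174 to 540 and 1005 CPM in RT112 (2.17 ± 0.34, edgeR adjusted p = 0.000122), and from 392 and 619 to 1524 and 2663 CPM in TCCSUP (2.05 ± 0.34, edgeR adjusted p = 0.000151). In J82 it was at 824 and 472 CPM in controls and at 836 and 786 CPM after treatment (0.32 ± 0.33, edgeR adjusted p = 0.465), with 0.78 and -0.02 when the first or the third control replicate was left out. Treated and control libraries overlapped in J82 and in no other line. The J82 and TCCSUP controls were the higher ones and did not differ beyond their spread (edgeR adjusted p = 0.408), nor did the 253J and RT112 controls (edgeR adjusted p = 0.534). The change in J82 differed from that in 253J, RT112 and TCCSUP with adjusted p of 0.0194, 0.0106 and 0.0157. Without the first J82 control replicate the differences from 253J and TCCSUP were lost (edgeR adjusted p = 0.0848 and 0.0636). The first was also lost without the second control or the third treated replicate of 253J or the first treated replicate of J82, the second without the first control or second treated replicate of TCCSUP, and that from RT112 was lost without the second RT112 treated replicate (edgeR adjusted p = 0.0655).

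The gene beside NEAT1, the antisense partner of MALAT1 and the genes for paraspeckle proteins were followed next. FRMD8, which encodes a partner of the iRhom proteins and lies on the other side of NEAT1, rose in 253J (1.34 ± 0.14), RT112 (0.79 ± 0.13) and TCCSUP (0.89 ± 0.13) and was at -0.17 ± 0.13 in J82 (edgeR adjusted p = 0.33). TALAM1, the antisense transcript of MALAT1, rose in 253J (1.90 ± 0.42) and RT112 (1.46 ± 0.41) and did not pass the test in J82 (-0.89 ± 0.41, edgeR adjusted p = 0.0913) or TCCSUP (0.23 ± 0.40, edgeR adjusted p = 0.668). Whether the counting used strand is not given in the sources used here, so TALAM1 and MALAT1 reads may not be separate. Of 12 genes for paraspeckle proteins, 12 fell in J82, 10 in 253J, 9 in TCCSUP and 8 in RT112, and no gene of this list rose, with medians of -0.76, -0.65, -0.77 and -0.52. In the same order 20.3%, 24.5%, 22.9% and 21.8% of all tested genes above 3 counts fell, with medians of 0.10, 0.17, 0.22 and 0.15. SFPQ, an essential paraspeckle protein, fell in all 4 lines, from 302 and 250 CPM to 116 and 105 CPM in 253J and from 309 and 291 CPM to 161 and 162 CPM in TCCSUP. NONO, its partner, fell in 253J, J82 and RT112 and was at -0.23 ± 0.15 in TCCSUP (edgeR adjusted p = 0.214).

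H19 and MEG3 are maternally expressed RNAs of imprinted regions, H19 beside the growth factor gene IGF2 on chromosome 11 and MEG3 beside DLK1 and RTL1 on chromosome 14. H19 is an oncofetal RNA, and MEG3 is described as a tumour suppressor that is silenced in many cancers. In RT112 H19 was at 650 and 527 CPM in controls and at 253 and 153 CPM after treatment (log2 fold change -1.54 ± 0.34, edgeR adjusted p = 0.00164). In J82 it went from 11.9 and 21.2 CPM to 3.87 and 3.99 CPM (-2.08 ± 0.38, edgeR adjusted p = 0.000504), with -2.43 and -1.60 when the first or the third control replicate was left out. In TCCSUP it went the other way, from 0.158 and 0.191 CPM (4 and 5 counts) to 15.6 and 6.37 CPM (417 and 162 counts), a log2 fold change of 5.94 ± 0.62 (edgeR adjusted p = 1.97e-06). Without the first treated replicate of TCCSUP this value was 5.14. In 253J it was at 0.905 and 0.421 CPM in controls and at 1.03 and 1.38 CPM after treatment (0.86 ± 0.61, edgeR adjusted p = 0.265). The 253J value was 1.52 without the second control replicate and 0.42 without the third. The groups did not overlap in any line. H19 therefore fell in RT112 and J82, where its control level was highest, and rose in TCCSUP. The TCCSUP controls, at 4 and 5 counts, did not differ beyond their spread from those of 253J (edgeR adjusted p = 0.0948), where H19 did not pass the test. The change in TCCSUP differed from those in 253J, J82 and RT112 (edgeR adjusted p = 0.00136, 3.01e-06 and 2.46e-06).

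The H19 control level ranged from a mean of 589 CPM in RT112 over 16.6 in J82 and 0.663 in 253J to 0.175 in TCCSUP. All pairs of lines differed except 253J against TCCSUP (edgeR adjusted p = 0.0948). Per length, H19 in RT112 controls (203 CPM per kb of exon) was above GAS5 (31.9) and NEAT1 (7.52) of the same libraries, and in TCCSUP controls (0.0604) it was below both (21.2 and 22.2).

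IGF2, which shares enhancers with H19 and is paternally expressed, rose in 253J (log2 fold change 4.68 ± 0.54), in J82 (at least 5.60-fold, from 0 counts in both controls to 15 and 21 counts) and in TCCSUP (from 2 and 0 counts to 65 and 89 counts). In RT112, the line with the highest IGF2 level, it was at 43.8 and 51.0 CPM in controls and at 47.3 and 60.7 CPM after treatment (0.19 ± 0.28, edgeR adjusted p = 0.626). From 0 counts in both J82 controls and 2 and 0 counts in those of TCCSUP, IGF2 could hardly go down. Its direction beside that of H19, which fell in J82 and rose in TCCSUP, is therefore a description. MRPL23, a mitochondrial ribosomal protein gene that the annotation overlaps with H19, fell in 253J (-1.29 ± 0.19) and RT112 (-0.52 ± 0.20); the rows may share reads.

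MEG3 was at 0 counts in both controls of 253J, RT112 and TCCSUP and at 1 and 0 counts in J82 controls. In TCCSUP it reached 140 and 145 counts (5.24 and 5.71 CPM), at least 46.9-fold higher against the limit of 3 counts per library (edgeR adjusted p = 0.000168). MEG3 passed the filter on low counts through the treated libraries, with no more than 1 count in any control, so from the 0 counts of 253J, RT112 and TCCSUP controls it could only go up, and these calls are a description. DESeq2 on all lines gave an adjusted p of 0.0848 for this change and, on TCCSUP alone, of 1.06e-09. In RT112 it reached 4 and 9 counts, at least 2.50-fold higher (edgeR adjusted p = 0.0388), and in 253J 0 and 14 counts (edgeR adjusted p = 0.0419). The last value rested on 1 library, without which every 253J library was at 0, and in both lines the call was lost with DESeq2 on all lines (adjusted p = 0.407 in 253J and 0.381 in RT112) and when either control library was left out. In RT112 it was also lost without the second treated replicate (edgeR adjusted p = 0.149). In J82 both treated libraries were at 0.

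Other genes of the MEG3 region were also low in controls. MEG8, a noncoding RNA of the same imprinted strand, rose in TCCSUP from 0 and 3 counts to 168 and 133 counts and in 253J from 3 and 3 counts to 25 and 36 counts. RTL1, a retrotransposon-derived gene expressed from the paternal copy, rose in TCCSUP from 0 counts in both controls to 19 and 27 counts, at least 7.59-fold. At 0 in these controls RTL1 could only go up there, so this call is a description. DLK1, the paternally expressed Notch ligand at the other end, stayed between 0 and 4 counts in all 16 libraries. DIO3, a thyroid hormone deiodinase gene at the far end of the domain, rose in RT112 from 0 and 4 counts to 149 and 126 counts and was at 0 in TCCSUP. Of the 14 imprinted genes of both regions that were listed, 11 were tested and 9 were above 3 counts in each line, of which 4 rose and 1 fell in 253J, 4 rose in J82, 4 rose and 1 fell in RT112 and 5 rose in TCCSUP. These were 44.4%, 44.4%, 44.4% and 55.6% of the 9, where 31.3%, 26.4%, 29.4% and 33.1% of all tested genes above 3 counts rose. Some of the 9, such as RTL1 and MEG8 in TCCSUP, were above 3 counts through the treated libraries only, so these shares are a description.

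GAS5 is a growth-arrest RNA whose introns hold small nucleolar RNAs (snoRNAs), the guides of ribosomal RNA modification, and whose spliced RNA is degraded during translation. It fell in 3 lines. In 253J it went from 172 and 190 CPM to 77.9 and 84.2 CPM (log2 fold change -1.16 ± 0.13, edgeR adjusted p = 3.61e-06), and in RT112 from 116 and 116 CPM to 49.8 and 49.9 CPM (-1.22 ± 0.13, edgeR adjusted p = 3.99e-06). In J82 the change was smaller, from 88.5 and 101 CPM to 63.1 and 71.2 CPM (-0.49 ± 0.13, edgeR adjusted p = 0.00635), and the call was lost with J82 fitted alone (edgeR adjusted p = 0.0937, DESeq2 adjusted p = 0.0876) and without the third control (edgeR adjusted p = 0.0522) or the first treated replicate (edgeR adjusted p = 0.113). In TCCSUP GAS5 was at 82.04 and 72.2 CPM in controls and at 83.4 and 74.3 CPM after treatment (0.03 ± 0.13, edgeR adjusted p = 0.867). The groups overlapped in TCCSUP and in no other line. The change in TCCSUP differed from those in 253J (edgeR adjusted p = 0.000194) and RT112 (edgeR adjusted p = 0.000136), and the difference from J82 had an edgeR adjusted p of 0.0527. The 253J controls had the highest level and differed from those of the other lines, whereas J82 did not differ from RT112 (edgeR adjusted p = 0.0728) or from TCCSUP (edgeR adjusted p = 0.0739).

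Other snoRNA host genes were counted beside GAS5. Of 16 such genes (SNHG1 and its relatives, ZFAS1 and EPB41L4A-AS1), 14 fell in 253J, 13 in J82 and 15 in RT112, with 0 rising, and the medians were -1.46, -0.72 and -1.21, where 24.5%, 20.3% and 21.8% of all tested genes above 3 counts fell. In TCCSUP 3 fell and 2 rose, with a median of -0.12, where 22.9% of all genes fell and 33.1% rose. SNHG1 fell by 1.48 ± 0.15 on the log2 scale in 253J, by 0.74 ± 0.15 in J82 and by 1.04 ± 0.15 in RT112, and was at 0.33 ± 0.15 in TCCSUP (edgeR adjusted p = 0.0717). ZFAS1, which hosts snoRNAs of the SNORD12 family, fell by 1.31, 0.80 and 0.88 in the same order and was at -0.11 in TCCSUP. SNHG3 and SNHG6 fell in TCCSUP as well (-0.67 and -1.14), and SNHG8 rose there (0.64) after falling in the other lines. The medians over all tested genes above 3 counts were 0.17, 0.10, 0.15 and 0.22. Of the 11 snoRNA genes within GAS5, 9 fell in 253J, 5 in RT112, 4 in J82 and 0 in TCCSUP, and 0 rose. Reads of GAS5 introns and of its snoRNAs come from the same stretch, so these rows may share reads, as may those of GAS5-AS1 and ZBTB37, which the annotation places on GAS5.

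**Figure D3:**
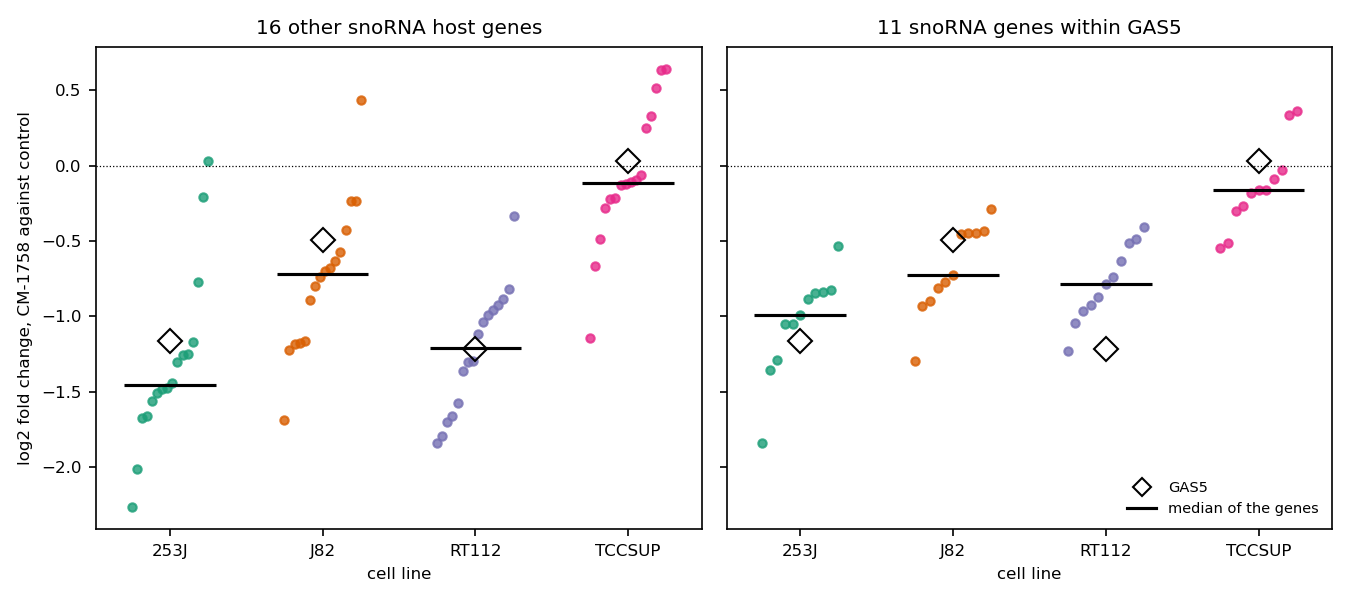
Log2 fold change with CM-1758 of 16 other snoRNA host genes and of the 11 snoRNA genes within GAS5, by line; points are genes, the line is their median and the open diamond is GAS5. In 253J, J82 and RT112 the medians lie below 0 (-1.46, -0.72 and -1.21 for the hosts), and in TCCSUP the hosts spread around a median of -0.12.

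PVT1 lies beside MYC and is co-amplified with it in many tumours, where it is known to stabilise the MYC protein. In 253J PVT1 went from 26.1 and 27.5 CPM to 8.60 and 9.08 CPM (log2 fold change -1.60 ± 0.17, edgeR adjusted p = 2.61e-06). In TCCSUP it went from 13.02 and 13.3 CPM to 7.15 and 10.3 CPM (-0.59 ± 0.17, edgeR adjusted p = 0.0104), a call lost with library size alone as the scaling (edgeR adjusted p = 0.213) and without the first treated replicate (edgeR adjusted p = 0.148). In J82 it was at 22.5 and 22.0 CPM in controls and 22.3 and 19.9 CPM after treatment, and in RT112 at 10.5 and 12.5 CPM and 12.4 and 13.2 CPM, so that the groups overlapped in both (log2 fold change -0.07 and 0.15, edgeR adjusted p = 0.784 and 0.49). The change in 253J differed from those in J82, RT112 and TCCSUP (edgeR adjusted p = 0.000222, 7.84e-05 and 0.00612). Control levels fell into a higher pair, 253J and J82 (edgeR adjusted p = 0.194 between them), and a lower pair, TCCSUP and RT112 (edgeR adjusted p = 0.379). MYC, the transcription factor gene next to it, fell in 253J from 144 and 131 CPM to 72.8 and 57.3 CPM and in RT112 from 108 and 101 CPM to 36.5 and 36.0 CPM. Both MYC and PVT1 fell in 253J, whereas in RT112 MYC fell by 1.53 ± 0.18 on the log2 scale and PVT1 did not pass the test. In TCCSUP, where PVT1 fell, MYC was at -0.41 ± 0.18 (edgeR adjusted p = 0.063), and in J82 it was at 0.37 ± 0.17 (edgeR adjusted p = 0.103).

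CDKN2B-AS1 (ANRIL) and MIR31HG lie near each other on the short arm of chromosome 9, a region often lost in bladder cancer. CDKN2B-AS1 runs antisense to the cell-cycle inhibitor gene CDKN2B and is known for recruiting Polycomb proteins to it, and MIR31HG is the host of the microRNA shown above. Both had 0 counts in all 4 RT112 libraries. Within the RT112 libraries the genes between them and around them were also at 0: IFNE, an interferon gene, MTAP, a methionine salvage enzyme gene, CDKN2A and CDKN2B had 0 counts in all 4, and DMRTA1 at most 2 counts. KLHL9, before this run, was at 106 and 85.9 CPM in RT112 controls, and ELAVL2, after it, at 23.4 and 19.8 CPM. In 253J CDKN2A was at 0 counts in all 4 libraries and CDKN2B at 0.471 and 0.881 CPM in controls, while CDKN2B-AS1 was at its highest there (33.9 and 38.2 CPM). In J82 and TCCSUP controls CDKN2B stood at 120 and 129 CPM and at 99.2 and 88.6 CPM.

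**Figure D4:**
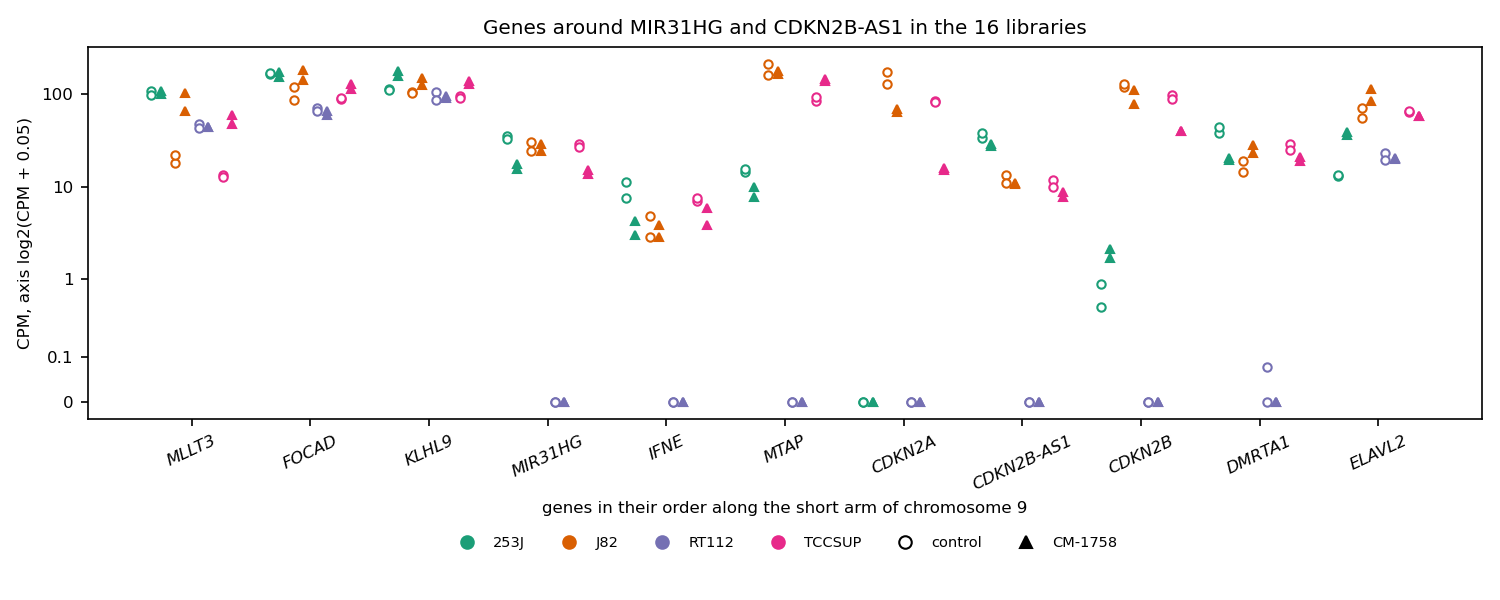
Level of MIR31HG, CDKN2B-AS1 and neighbouring genes in their chromosomal order, as CPM on a log2(CPM + 0.05) axis; points are libraries, coloured by line, open circles for controls and filled triangles for CM-1758. The RT112 points sit at 0 from MIR31HG to CDKN2B, with 1 DMRTA1 library at 2 counts, and at measurable levels on either side.

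MIR31HG fell in 253J from 35.6 and 33.4 CPM to 18.0 and 15.6 CPM (log2 fold change -1.04 ± 0.16, edgeR adjusted p = 0.000141) and in TCCSUP from 29.4 and 27.4 CPM to 13.7 and 15.2 CPM (-0.97 ± 0.16, edgeR adjusted p = 0.000271). In J82 it was at 24.4 and 30.6 CPM in controls and at 24.7 and 28.9 CPM after treatment (-0.04 ± 0.16, edgeR adjusted p = 0.923), where the groups overlapped. The change in J82 differed from that in 253J (edgeR adjusted p = 0.00478) and in TCCSUP (edgeR adjusted p = 0.0105). The control levels of 253J, TCCSUP and J82 did not differ beyond their spread (edgeR adjusted p of 0.106 to 0.901 over the 3 pairs).

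CDKN2B-AS1 did not pass the test in any line. It was at 33.9 and 38.2 CPM in 253J controls and 29.2 and 27.8 CPM after treatment (log2 fold change -0.34 ± 0.17, edgeR adjusted p = 0.112), at 13.4 and 11.2 against 11.1 and 10.8 CPM in J82 (-0.17 ± 0.17, edgeR adjusted p = 0.482), and at 12.1 and 9.96 against 7.79 and 8.85 CPM in TCCSUP (-0.40 ± 0.18, edgeR adjusted p = 0.0695). The treated libraries were below the controls in all 3 lines, in J82 narrowly (11.135 against 11.198 CPM for the closest 2). The share of all genes whose groups do not overlap is not given here, so separations without a call are a description. With library size alone as the scaling the log2 fold changes of CDKN2B-AS1 were -0.07 in 253J, -0.02 in J82 and -0.09 in TCCSUP. Protein-coding genes of the same locus passed the test in some lines. CDKN2A, which encodes p16 and ARF, fell in TCCSUP from 85.4 and 82.1 CPM to 15.5 and 16.3 CPM (-2.40 ± 0.17) and in J82 by 1.18 ± 0.16 on the log2 scale. CDKN2B, which encodes p15, fell in TCCSUP (-1.22 ± 0.18), rose in 253J (1.50 ± 0.32) and was at -0.38 ± 0.18 in J82 (edgeR adjusted p = 0.11). Without knowing whether strand was used in the counting, reads of CDKN2B-AS1 and of the genes it overlaps may not be separate. Of the 11 listed genes of the region, 9 were above 3 counts in 253J, of which 3 rose and 3 fell, 10 in J82, of which 5 rose and 2 fell, and 9 in TCCSUP, of which 4 rose and 2 fell. These shares were 33.3% and 33.3%, 50% and 20%, and 44.4% and 22.2%, against 31.3% and 24.5%, 26.4% and 20.3%, and 33.1% and 22.9% of all tested genes above 3 counts. In RT112 only 4 were above 3 counts, and 0 of these passed the test.

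HOTAIR is transcribed from the HOXC cluster on chromosome 12, antisense to HOXC11, and is known for binding the Polycomb complex PRC2 and the LSD1-CoREST complex. It had 0 counts in all 4 libraries of 253J. In TCCSUP, the line with the highest level, it was at 4.91 and 3.06 CPM in controls and at 3.11 and 2.99 CPM after treatment (log2 fold change -0.39 ± 0.52, edgeR adjusted p = 0.559). In J82 it went from 15 and 16 counts to 3 and 6 counts (-1.85 ± 0.77, edgeR adjusted p = 0.0696), where the groups did not overlap, and in RT112 from 13 and 7 counts to 0 and 7 counts (-1.27 ± 0.85, edgeR adjusted p = 0.239). The control level in TCCSUP differed from J82 (edgeR adjusted p = 0.0016) and RT112 (edgeR adjusted p = 0.000308), and J82 and RT112 did not differ beyond their spread (edgeR adjusted p = 0.37). HOXC11, the homeobox gene on the other strand, was also at 0 in 253J, at 4.12 and 4.44 CPM in TCCSUP controls and at 15 and 28 counts in J82 controls; the annotation overlaps it with HOTAIR, and the rows may share reads. In RT112 HOXC11 went from 15 and 9 counts to 0 in both treated libraries (at least 3.43-fold lower, edgeR adjusted p = 0.00192). Of 12 HOXC genes, 9 were tested and 7, 7, 8 and 9 were above 3 counts in 253J, J82, RT112 and TCCSUP. Of these, 1 rose and 2 fell in 253J, 1 fell in J82, 1 rose and 1 fell in RT112 and 2 fell in TCCSUP. Over all tested genes above 3 counts, 31.3%, 26.4%, 29.4% and 33.1% rose and 24.5%, 20.3%, 21.8% and 22.9% fell in the same order. Among 11 genes for PRC2 and LSD1-CoREST proteins, 3 rose and 5 fell in 253J and 4 rose and 2 fell in J82. In RT112 5 of them rose and 3 fell, and in TCCSUP 4 rose and 2 fell, beside the same shares over all genes. RCOR1 (CoREST) rose in all 4 lines, by 0.79, 0.41, 0.80 and 0.33, and EZH2, the PRC2 methyltransferase, fell in 253J (-0.89) and RT112 (-0.38).

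A test of whether the change with CM-1758 differed between the 4 lines was passed by 7 of the 10 members (UCA1, H19, MALAT1, NEAT1, GAS5, PVT1 and MIR31HG), where 51.9% of all tested genes passed it. HOTAIR, MEG3 and CDKN2B-AS1 did not (edgeR adjusted p = 0.547, 0.222 and 0.866). NEAT1 lost this call when the first J82 control replicate was left out (edgeR adjusted p = 0.0675). In the pairwise contrasts of changes used above, 30% of all tested genes passed for 253J against J82, 30% for 253J against RT112, 28.6% for 253J against TCCSUP, 22.2% for J82 against RT112, 22.2% for J82 against TCCSUP and 27.5% for RT112 against TCCSUP. Control levels differed in 41 of the 60 combinations of a member and a pair of lines. Among all tested genes, the share that differed between controls was 53.1% for 253J against J82, 54.3% for 253J against RT112, 53.1% for 253J against TCCSUP, 52.1% for J82 against RT112, 48% for J82 against TCCSUP and 51.5% for RT112 against TCCSUP.

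The tested genes whose log2 CPM followed each member most closely over the 16 libraries are given as a description. All values come from the same libraries, and their spread was not divided between line and treatment. For UCA1 they were AQP3, an aquaglyceroporin gene, and RAB20 (Pearson r = 0.978 and 0.958). AQP3 was at a mean of 0 in 253J controls, 1.21 in J82, 8.25 in TCCSUP and 102 CPM in RT112, the order of UCA1, and rose in 253J, J82 and TCCSUP. For H19 they were FAAH, the fatty acid amide hydrolase gene, and SLC52A1 (0.97 and 0.966), and FAAH fell in J82 (-0.96) and RT112 (-0.99) and rose in TCCSUP (2.00). For MALAT1 they were CSNK2A2 and ZBTB43 (0.943 and 0.94), and for NEAT1 GABBR1 and ZKSCAN3 (0.974 and 0.93). For GAS5 they were PIDD1 and DNAJC14 (0.93 and 0.926), for PVT1 GGH and OTUD4 (0.921 and 0.913), and for HOTAIR SYCP2 and the tRNA gene TRI-AAT2-1 (0.968 and 0.957). MEG3 was followed by LRRC25 and LINC01639 (0.994 and 0.983), which like it were near 0 outside the treated TCCSUP libraries, with LRRC25 at a mean of 0.577 CPM there. For CDKN2B-AS1 they were ZNF790-AS1 and ZNF232 (0.992 and 0.988), and for MIR31HG ALPK2 and DMRTA1 (0.996 and 0.994), with ALPK2 like MIR31HG at 0 in RT112.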

How the data were processed

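The deposited table held whole-number counts per gene symbol, made by the authors from stranded total RNA libraries; the submitters' processing notes name HISAT2, StringTie and GRCh37, and their versions, the annotation and the use of strand are not given in the sources used here. All 16 columns were matched to samples by their labels. The members and gene lists were chosen with earlier results of these data known. Counts of all genes were filtered (filterByExpr over 8 groups), scaled by TMM and fitted in edgeR 4.0.16 (R 4.3.3) with the quasi-likelihood test and 1 coefficient per group, giving 8 residual degrees of freedom. Contrasts were treated against control in each line, differences between these, and control against control, each Benjamini-Hochberg adjusted over 21297 genes. Tested on simulated data for these comparisons, 199 of 200 genes changed 4-fold were recovered, with 13 other calls among 21297 genes. Far fewer genes changed there than were called here (in 253J 6134 higher and 4781 lower). Changes smaller than 4-fold were not part of it, so it does not cover the smaller changes reported. DESeq2 1.42.0, the tool of the study, other scalings and filters, and leaving out each library were alternatives. Named beside the members were their RefSeq neighbours (not all are reported here), list genes past the study threshold in at least 3 lines, examples chosen after their values were seen, and the 2 genes most correlated with each member. GENCODE 29 gave exon lengths. Coordinates of the count table were not used.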

Additional observations from a re-analysis of the deposited data

Results flagged for a closer look

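For 7 members the change with CM-1758 differed between the 4 lines by an edgeR test of the difference itself, which 51.9% of all tested genes passed. The adjusted p was 0.00516 for UCA1, which rose in every line, with a log2 fold change of 1.89 in RT112, 3.20 in TCCSUP and 3.23 in J82 and an at least 12.9-fold rise from 0 counts in 253J. From 0 counts it could only go up in 253J. Among the other lines the change in RT112 differed from those in J82 and TCCSUP (edgeR adjusted p = 0.0364 and 0.0221). The difference from J82 was lost when any 1 J82 or RT112 library other than the first J82 control replicate was left out. That from TCCSUP was lost without any 1 RT112 or TCCSUP library other than the second RT112 control or first TCCSUP treated replicate. The adjusted p over the 4 lines was 2.49e-06 for H19, which fell in J82 and RT112 and rose in TCCSUP. It was 0.000496 for MALAT1 and 0.0117 for NEAT1, both of which rose in 253J, RT112 and TCCSUP; for NEAT1 it was 0.0675 without the first J82 control replicate. It was 0.000126 for GAS5, which fell in 253J, J82 and RT112, 0.000132 for PVT1, which fell in 253J and TCCSUP, and 0.0082 for MIR31HG, which fell in the same lines as PVT1. The dose was the IC50 of each line and TCCSUP grew in another medium, so line, dose and, for TCCSUP, medium cannot be told apart.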

How the results depend on the processing

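Over the 36 member and line combinations above 3 counts, 457 of 477 values under alternatives stayed on the same side of the threshold. Another 15 lost the call, 5 gained one, and 0 turned a called direction. The sign of values without a call could turn, as for MALAT1 in J82 (-0.16, and 0.34 without the first control replicate). Leaving out the third 253J treated library gave no MEG3 value there. With at least 10 counts required in every library, fewer members could be tested (MALAT1, NEAT1, GAS5 and PVT1). Of these, 2 were higher in 253J, 2 in RT112, 2 in TCCSUP and 0 in J82. In 253J 2 were lower, and 1 was lower in RT112, 1 in TCCSUP and 1 in J82. The change differed between lines for 4 and control levels differed in 18 combinations. Of all genes, 3897, 3209, 3324 and 3729 were higher and 3877, 3074, 3170 and 3276 lower in 253J, J82, RT112 and TCCSUP. At the study threshold 2 members were higher and 0 lower in 253J, 1 higher and 0 lower in RT112, 1 lower in J82 and 0 lower in TCCSUP. J82 fitted alone gave 1 member lower with edgeR and 1 with DESeq2, and 2504 and 2595 of all genes lower against 3933. Library size alone gave 1 member lower in TCCSUP, 3137 genes lower there against 4710, and GAS5 higher in TCCSUP (0.34, adjusted p = 0.0287); it moved the median log2 fold change of all genes by 0.27, 0.14, 0.15 and 0.31. Leaving out 1 library gave 1 to 2 members lower in J82 and 1 to 2 in TCCSUP; without the second treated RT112 library HOTAIR was lower there (edgeR adjusted p = 0.0137), and with thinned counts HOTAIR was lower in J82 (edgeR adjusted p = 0.0444). edgeR on 253J alone called CDKN2B-AS1 lower (adjusted p = 0.0486). The cause of these changes was not tested.

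Treated and control libraries shared 2 replicate numbers in J82, RT112 and TCCSUP and 1 in 253J. Deviations of same-numbered libraries correlated by 0.053, 0.218, 0.0427 and 0.0173 in 253J, J82, RT112 and TCCSUP. From 2 libraries per group, such correlations cannot show whether a shared number stands for a shared experiment. With the replicate block H19 in 253J passed the threshold (log2 fold change 1.70, edgeR adjusted p = 0.0453), and no other call of a member changed. With 2 libraries per group, changes of HOTAIR and MEG3 at under 20 counts rest on few counts.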

Other observations

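Other long noncoding RNAs described in cancers were listed beside the 10 members. Of 36 such genes, 34 were in the count table, 31 were tested and 30, 29, 28 and 27 were above 3 counts in 253J, J82, RT112 and TCCSUP. In 253J 10 rose and 7 fell, in J82 7 rose and 5 fell, in RT112 9 rose and 8 fell, and in TCCSUP 6 rose and 8 fell. These were 33.3%, 24.1%, 32.1% and 22.2% higher and 23.3%, 17.2%, 28.6% and 29.6% lower, where 31.3%, 26.4%, 29.4% and 33.1% of all tested genes above 3 counts rose and 24.5%, 20.3%, 21.8% and 22.9% fell. No gene of this list passed the study threshold in the same direction in 3 or more lines.

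KRT20, the keratin of umbrella cells that cover the urothelium, rose in all 4 lines. In 253J, TCCSUP and J82 both controls were at 0 counts, so KRT20 could only go up there, and these calls are a description. It went from 0 counts in both controls to 11.7 and 7.15 CPM in 253J (at least 84.5-fold higher), from 0 to 2.70 and 5.08 CPM in TCCSUP (at least 33.3-fold) and from 0 to 0.358 and 0.169 CPM in J82 (at least 2.36-fold), and in RT112 from 6.47 and 6.57 CPM to 16.04 and 18.6 CPM (log2 fold change 1.41 ± 0.34, edgeR adjusted p = 0.0052). Of the 16 urothelial and epithelial markers, 12, 11, 15 and 14 were above 3 counts in 253J, J82, RT112 and TCCSUP. Of these, 4 rose and 4 fell in 253J, 6 rose and 1 fell in J82, 2 rose and 5 fell in RT112, and 5 rose and 6 fell in TCCSUP. Over all tested genes above 3 counts, 31.3%, 26.4%, 29.4% and 33.1% rose and 24.5%, 20.3%, 21.8% and 22.9% fell in the same order. CDH1, which encodes E-cadherin, fell in 253J (-2.80 ± 0.22), rose in J82 (2.77 ± 0.24) and RT112 (0.90 ± 0.21), and was at -0.09 ± 0.22 in TCCSUP (edgeR adjusted p = 0.772). Of the 7 blood and endothelial markers, 5 of which were tested, 1 rose in each line and 1, PTPRC, fell in TCCSUP. The shares over all genes beside these counts are those given for the urothelial markers.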
